A study of Arabidopsis thaliana with 12 samples.

Results

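The nuclear genes for light harvesting, the photosystems, plastocyanin and Rubisco were followed in flowers of Arabidopsis thaliana that lack most ASK1 expression. The set was a fixed list of 45 loci, and all 45 were found among the 33602 genes of the count tables. It held 14 LHCB genes (antenna proteins of photosystem II), 6 LHCA genes (antenna proteins of photosystem I), 10 PSA genes (photosystem I subunits), 7 PSB genes (photosystem II subunits), both plastocyanin genes (PETE1 and PETE2) and 6 genes of Rubisco and its helpers. The list was drawn up by gene function, but with earlier results of these data known. Its counts are therefore not those of a set chosen in advance. All 45 passed the filter on low counts, as did 21890 genes in all.

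The mutant, labelled ask1 Ds, carried a Ds insertion allele of ASK1, whose product is the SKP1-like adaptor of SCF ubiquitin ligases. It was compared with plants labelled ASK1 WT and with Col-0, each as floral buds and as open flowers, in 6 groups of 2 libraries. The title of the study calls the mutant fertile. Every library carried the strain label Col-0. Plants of all groups were kept in long days, with a light phase of 16 h (150 µmol/m2/s, 21 °C) and a dark phase of 8 h (19 °C), and were sampled 5 h after dawn. Each library came from 10 to 50 mg of tissue. The labels do not say that the libraries of a group came from separate plants, so p-values measure the spread between these libraries, which may be technical.

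These proteins are made in the cytosol, imported into plastids and assembled with pigments and plastid-made subunits in the thylakoid membrane or the stroma. Antenna proteins bind chlorophyll and pass light energy to the photosystem cores, plastocyanin carries electrons between the cytochrome b6f complex and photosystem I, and Rubisco fixes carbon dioxide with the help of an activase and assembly chaperones. In flowers the green tissues are mainly sepals, young carpels and immature anthers, and the genes respond to light, to the circadian clock and to the state of the plastid.

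The libraries held 13780265 to 23426466 counts assigned to genes. Levels are given as CPM (counts scaled to a common library size with TMM factors), and 3 counts, the limit that a count of 0 allows, equalled 0.135 to 0.203 CPM. ASK1 was at 10.1 to 50.9 CPM in the 4 ask1 libraries and at 247 to 310 CPM in the 8 control libraries. The sum of 14 pollen markers was 84.6 and 216 CPM in ask1 buds against 2060 to 2466 CPM in control buds, and 825 and 834 CPM in ask1 open flowers against 6533 to 8055 CPM in control open flowers. Of those markers 12 of 14 fell against both controls in buds and 14 of 14 in open flowers. Pollen is not green, and in bulk tissue fewer cells of a type and less RNA per cell cannot be told apart. The sepal and petal gene AP1 was at 144.8 and 150 CPM in ask1 buds against 110 to 118 CPM in controls, and at 46.8 and 61.7 CPM in ask1 open flowers against 26.7 to 39.0 CPM, where it rose by 0.95 and 0.65 on the log2 scale against ASK1 WT and Col-0. The summed stamen and petal genes AP3 and PI were at 317 and 318 CPM in ask1 buds against 423 to 460 CPM in controls, and at 353 and 457 CPM in ask1 open flowers against 284 to 354 CPM. The 4 carpel and ovule genes summed to 96.8 and 100.2 CPM in ask1 buds against 110 to 122 CPM, with CRC and SHP2 lower against both controls, and to 205 and 256 CPM against 235 to 274 CPM in open flowers. The AP3 with PI sum and the carpel and ovule sum thus lay below all controls in ask1 buds and overlapped them in open flowers, while AP1 lay above all controls in both tissues. The 6 tapetum genes summed to 498 and 550 CPM in ask1 buds against 509 to 548 CPM, and to 11.7 and 12.1 CPM against 7.47 to 8.61 CPM in open flowers, so that they overlapped the controls in buds and lay above them in open flowers. The 3 guard cell genes summed to 23.1 and 23.3 CPM in ask1 buds against 16.3 to 20.4 CPM, and to 22.6 and 27.7 CPM against 22.0 to 25.6 CPM in open flowers. The part of these tissue differences in the results below was not tested.

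The first ask1 open flower library stood apart from the other 11. For each library, exon length was set across genes against the difference from the mean of the control libraries of its tissue, itself left out. The rank correlation was -0.493 in the first ask1 open flower library, so that short genes read high in it. It was -0.077 to 0.071 in the others. Photosynthesis genes are short: their exon length ran from 702 to 2101 bases with a median of 1242, against 1748 for all tested genes, and 42 of the 45 lay below that median. Of the 45 genes 42 read higher in this library than in the second ask1 open flower library, by a median of 0.51 on the log2 scale. Counts of calls, and the open flower calls of single genes, are therefore given with and without it.

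Before the values, 6 promoters are shown: those of the 4 genes that rose in ask1 in both tissues (LHCB1.3, LHCB1.4, RBCS1B and RbcX1) and those of LHCB1.1 and LHCB1.5, which lie beside LHCB1.3 and LHCB1.4 and did not rise. Each is the 250 bases before the annotated start in TAIR10.1, written 5′ to 3′ on the gene's own strand. Capitals mark matches to 5 motifs searched on both strands: the G-box CACGTG, the I-box GATAAG, the sequence CCAATC tied to GLK factors, the evening element AAATATCT and the binding site AAAAATCT of the clock factor CCA1.
LHCB1.3 (chr1:10477635-10477884, plus strand): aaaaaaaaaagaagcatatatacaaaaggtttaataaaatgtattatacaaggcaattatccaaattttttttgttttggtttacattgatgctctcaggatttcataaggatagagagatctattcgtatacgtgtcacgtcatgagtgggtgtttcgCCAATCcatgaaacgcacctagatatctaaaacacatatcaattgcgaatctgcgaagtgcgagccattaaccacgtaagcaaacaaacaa
LHCB1.1 (chr1:10475970-10476219, minus strand): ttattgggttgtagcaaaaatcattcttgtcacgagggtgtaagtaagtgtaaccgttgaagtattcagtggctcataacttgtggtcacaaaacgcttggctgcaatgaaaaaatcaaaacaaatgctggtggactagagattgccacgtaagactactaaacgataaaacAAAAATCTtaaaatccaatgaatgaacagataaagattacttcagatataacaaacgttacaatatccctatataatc
LHCB1.4 (chr2:14524357-14524606, plus strand): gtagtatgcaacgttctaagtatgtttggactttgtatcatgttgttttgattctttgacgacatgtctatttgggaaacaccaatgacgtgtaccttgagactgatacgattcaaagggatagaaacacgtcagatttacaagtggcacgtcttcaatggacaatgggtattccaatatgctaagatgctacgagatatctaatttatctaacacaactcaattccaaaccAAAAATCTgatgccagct
LHCB1.5 (chr2:14523569-14523818, minus strand): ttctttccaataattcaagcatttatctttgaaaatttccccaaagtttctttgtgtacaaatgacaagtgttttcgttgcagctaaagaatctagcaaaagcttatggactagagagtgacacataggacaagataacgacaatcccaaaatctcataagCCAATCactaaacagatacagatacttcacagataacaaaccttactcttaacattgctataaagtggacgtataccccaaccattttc
RBCS1B (chr5:15385321-15385570, minus strand): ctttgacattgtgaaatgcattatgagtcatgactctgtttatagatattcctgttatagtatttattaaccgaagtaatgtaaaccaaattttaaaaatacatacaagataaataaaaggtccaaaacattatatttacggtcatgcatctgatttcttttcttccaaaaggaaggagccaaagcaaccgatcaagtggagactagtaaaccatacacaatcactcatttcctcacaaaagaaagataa
RbcX1 (chr4:2118618-2118867, minus strand): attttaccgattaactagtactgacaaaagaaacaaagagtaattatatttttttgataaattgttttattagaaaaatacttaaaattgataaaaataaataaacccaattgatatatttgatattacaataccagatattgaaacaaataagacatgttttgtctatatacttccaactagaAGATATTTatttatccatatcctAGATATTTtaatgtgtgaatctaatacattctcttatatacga

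The 4 genes shared none of the 5 motifs. CCAATC stood in the LHCB1.3 promoter (bases -91 to -86 from the start) and also in that of LHCB1.5 (-89 to -84). AAAAATCT stood in the LHCB1.4 promoter (-18 to -11) and also in that of LHCB1.1 (-78 to -71). The RbcX1 promoter held the evening element on its minus strand at 2 places (-66 to -59 and -43 to -36), where the printed letters are its reverse complement. None of the 5 was found in the window of RBCS1B. Over all 45 genes CCAATC was in 13 promoters (28.9%), against 10.2% of 27443 promoters of protein-coding genes, and the I-box in 12 (26.7% against 12.3%). The G-box was in 8 (17.8% against 6.49%), AAAAATCT in 5 (11.1% against 6.69%) and the evening element in 2 (4.44% against 4.79%). These matches describe letters in a window and not binding.

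LHCB1.1 and LHCB1.3 lie head to head on chromosome 1, LHCB1.1 at 10474656 to 10475969 on the minus strand and LHCB1.3 at 10477885 to 10479114 on the plus strand, with 1915 bases between them. LHCB1.5 and LHCB1.4 lie head to head on chromosome 2 with 1038 bases between them. RBCS3B, RBCS2B and RBCS1B follow each other on the minus strand of chromosome 5, with RBCS1B at 15383167 to 15385320. The coding sequences of LHCB1.1 and LHCB1.3 were 96.1% identical, those of LHCB1.4 and LHCB1.5 91.4%, those of RBCS1B and RBCS2B 97.3% and those of RBCS1B and RBCS3B 94.1%, the last pair with a shared run of 230 bases. Reads from such copies can be split or lost at counting, so single values of LHCB1 and RBCS genes are uncertain, and family sums are given beside them.

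In the controls the set spanned a wide range of levels. Per kb of exon, RBCS1A (the main small subunit of Rubisco) was at 3080 CPM in Col-0 buds, LHCB1.5 at 2697 CPM and LHCB1.3 at 2379 CPM, while LHCA5 and LHCA6 were at 51.1 and 27.3 CPM, LHCB1.4 at 14.2 CPM and RbcX1 at 0.502 CPM. In ask1 buds LHCB1.3 was at 4426 CPM per kb, above RBCS1A at 4081 CPM per kb. The 45 genes took 3.90% to 4.36% of all counts in control buds and 3.96% to 4.24% in control open flowers. In ask1 they took 4.81% and 5.01% in buds, and 6.67% and 5.10% in the first and second open flower library. Every ask1 library lay above all control libraries of its tissue in this share, and the first open flower library was the highest.

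**Figure D1:**
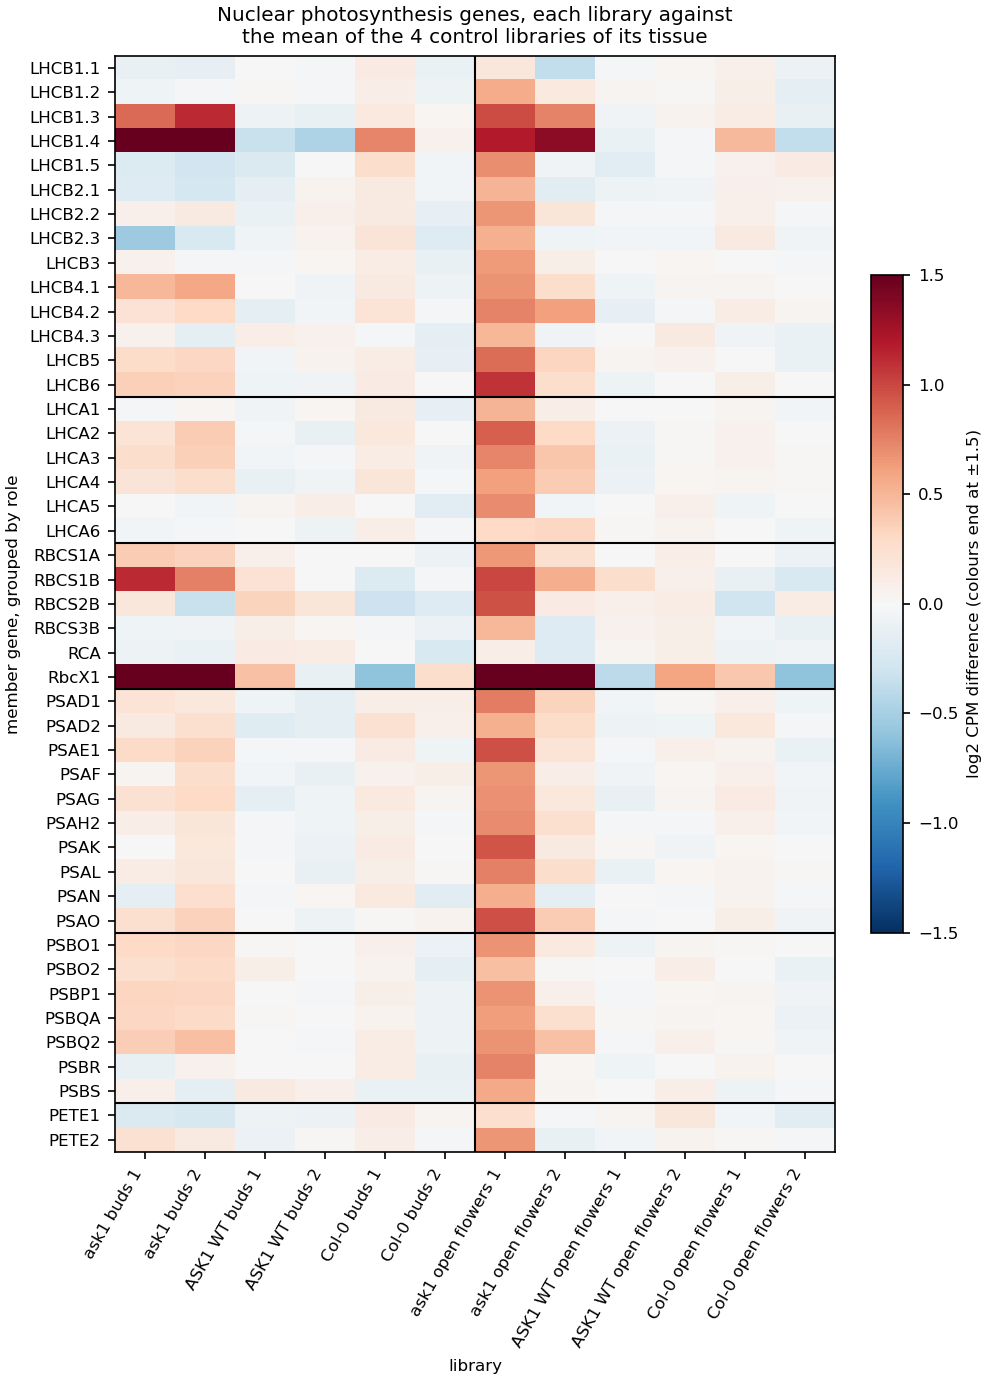
Each row is 1 of the 45 genes, grouped by role, and each column 1 of the 12 libraries; colour gives the log2 CPM difference from the mean of the 4 control libraries of the same tissue, ending at ±1.5. LHCB1.3, LHCB1.4, RBCS1B and RbcX1 are high in all 4 ask1 libraries, and the first ask1 open flower library is high in nearly every row (42 of 45 above the second).

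In the fit of all libraries few genes of the set rose in ask1 buds, while in ask1 open flowers genes rose in every role group except plastocyanin. This contrast depended on the fit. With only the compared libraries in the fit, more genes rose in buds than in open flowers, as given below. In buds 6 of 45 (13.3%) rose against ASK1 WT, a share near the 8.84% of all tested genes that rose (edgeR quasi-likelihood test, Benjamini-Hochberg adjusted p under 0.05 over all tested genes). They were LHCB1.3, LHCB1.4, LHCB4.1, RBCS1B, RbcX1 and PSBQ2. Against Col-0 the same genes except PSBQ2 rose, 5 of 45 (11.1%), near the 7.04% of all tested genes that did. In open flowers 18 rose against ASK1 WT, where 14.1% of all tested genes rose, and 19 against Col-0, where 12.9% did. The 18 were 6 of 14 LHCB, 3 of 6 LHCA, 6 of 10 PSA, 1 of 7 PSB and 2 of 6 Rubisco genes. The 19 were 5 LHCB, 4 LHCA, 5 PSA, 2 PSB and 3 Rubisco genes. No gene of the set fell in any of these 4 comparisons, while 17.0%, 14.1%, 15.9% and 14.3% of all tested genes fell. By unadjusted p under 0.05 the falling genes numbered 0, 1, 0 and 0, and DESeq2 called 0 in each. Both comparisons of a tissue use the same ask1 libraries and are not independent.

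The median log2 fold change of the set against ASK1 WT was 0.22 in buds, against -0.05 over all tested genes, with 32 genes above 0 and 13 below. In open flowers it was 0.47, against 0.01 over all tested genes, with 43 above 0 and 2 below. Against Col-0 the medians were 0.10 in buds and 0.42 in open flowers. Genes that rose against both controls numbered 5 in buds (5.62% of all tested genes) and 16 in open flowers (10.5%), and 4 of them did so in both tissues. Both ask1 libraries lay above all 4 controls for 24 of 45 genes in buds (22.5% of all tested genes) and for 31 of 45 in open flowers (25.2%). They lay below all 4 controls for LHCB1.1, LHCB2.1, LHCB2.3 and PETE1 in buds (32.1% of all tested genes) and for none in open flowers (24.5%).

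The bud counts changed when the first ask1 open flower library, which is in neither bud group but shared the fit, was left out. Without it 26 of 45 genes rose in buds against ASK1 WT, where 19% of all tested genes rose, and 19 against Col-0, where 18.1% did. LHCB1.5 and PETE1 then fell against Col-0. With the trend on exon length removed, 17 and 10 genes rose in buds, where 12.9% and 11.3% of all tested genes did, and PETE1 fell against Col-0. With only the libraries compared in the fit, 25 and 15 rose, where 16.9% and 14.1% did, PETE1 fell against Col-0, and LHCB1.4 lost its call against both controls. The count against ASK1 WT was 3 without the first ask1 bud library and also without the second ASK1 WT bud library, and that against Col-0 was 3 without the second Col-0 bud library.

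The open flower counts moved with single libraries in both directions. Without the first ask1 open flower library 11 genes rose against ASK1 WT, where 12.2% of all tested genes rose, and LHCB1.1, RBCS3B and RCA fell, where 20.7% fell. Against Col-0 10 rose, where 10.6% of all tested genes rose, and LHCB1.1 and LHCB2.1 fell. All 11 and all 10 that rose were among the 18 and 19 of the full fit. Without the second ask1 open flower library 41 and 42 of 45 rose, where 25.1% and 24.9% of all tested genes did. With 1 library of the control group left out, 3 rose against ASK1 WT whichever it was, and 4 or 2 against Col-0 without its first or second library. With the length trend removed, 15 and 14 rose, where 16.9% and 15.4% of all tested genes did. The lowest counts came from the fits of the compared libraries alone: LHCB1.4 and RbcX1 were then the 2 that rose against ASK1 WT, where 2.8% of all tested genes did, and RbcX1 the 1 that rose against Col-0, where 1.82% did. Every other open flower call of the set was lost in those fits.

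**Figure D2:**
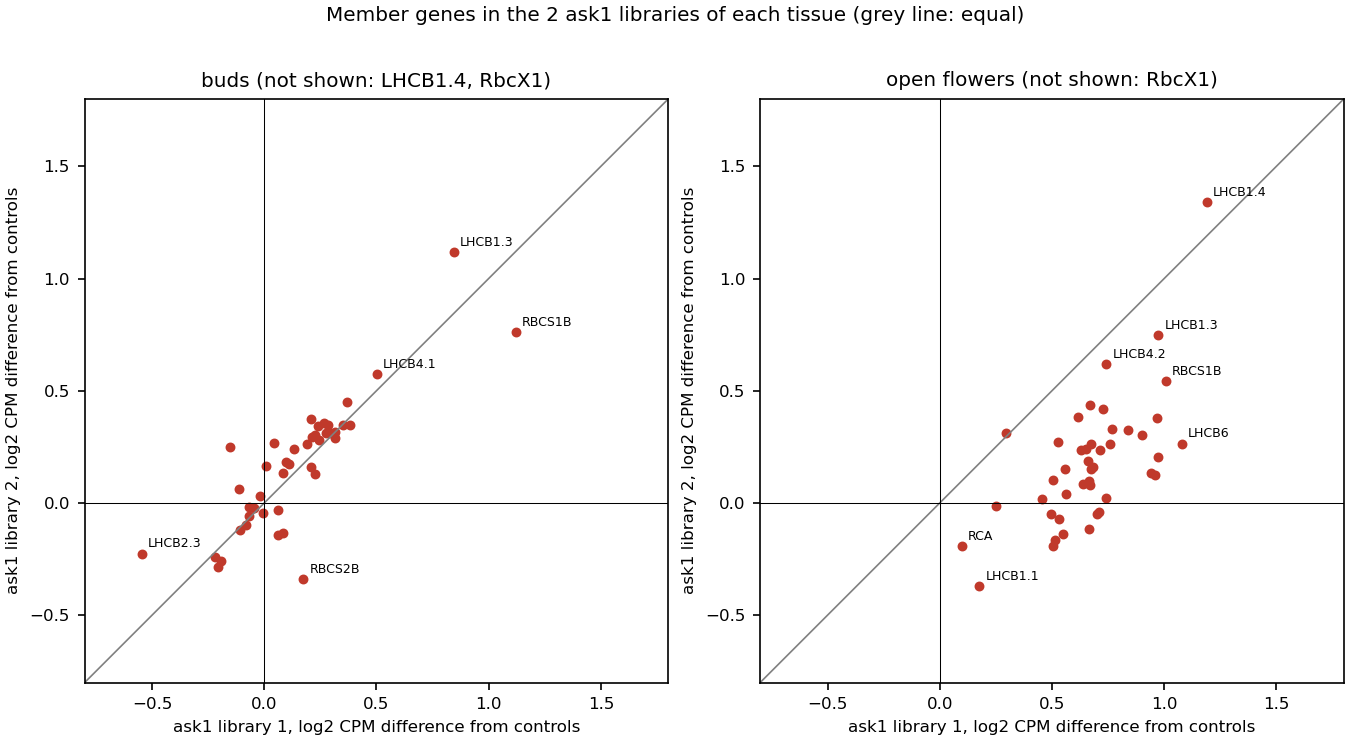
Each point is 1 gene, with the log2 CPM difference from the mean of the 4 controls in the first ask1 library on the x axis and in the second on the y axis, for buds and open flowers; genes past the axis limits are named in the panel titles. In buds the points follow the grey line of equal values, and in open flowers 42 of 45 lie below it, with a median difference of 0.51.

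The 2 ask1 bud libraries were alike, with a median difference from the controls of 0.17 and 0.24 on the log2 scale and with 32 and 31 of 45 genes above the control mean. In open flowers the medians were 0.67 and 0.16, with 45 and 34 genes above. Removing the length trend lowered the first to 0.30 with 40 genes above and left the second at 0.14 with 32. Over all tested genes the corresponding medians lay between -0.06 and 0.04 in these 4 libraries, with or without the length trend.

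Among the antenna genes of photosystem II, LHCB1.3 and LHCB1.4 rose in the fit of all libraries, while LHCB1.1, LHCB1.2 and LHCB1.5 did not pass the test. Of 14 LHCB genes, 3 rose in buds against each control, where 8.84% (ASK1 WT) and 7.04% (Col-0) of all tested genes rose. In open flowers 6 and 5 rose against ASK1 WT and Col-0, where 14.1% and 12.9% did. LHCB1.3 (AT1G29930), 1 of 5 genes for the major light-harvesting protein, was at 4932 and 5955 CPM in ask1 buds, 2614 and 2549 CPM in buds of ASK1 WT and 3049 and 2803 CPM in those of Col-0. The open flower levels were 7505 and 6424 CPM in ask1, 3685 and 3966 CPM in ASK1 WT, and 4117 and 3549 CPM in Col-0. Every ask1 library lay well above every control library of its tissue. Its log2 fold change against ASK1 WT was 1.08 ± 0.16 (SE) in buds (edgeR, adjusted p 5.24e-04) and 0.86 ± 0.16 in open flowers (edgeR, adjusted p 0.00237). Against Col-0 the changes were 0.90 and 0.86. In buds the call against ASK1 WT held in all 10 alternatives, between 0.94 and 1.21. In open flowers it held in 8 of 9, between 0.66 and 0.97 over all 9 and at 0.70 without the first ask1 library, and was lost with only the compared libraries in the fit (adjusted p 0.0680).

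LHCB1.4 (AT2G34430), a weakly expressed gene of the same family, was at 42.5 and 94.4 CPM in ask1 buds, 10.8 and 9.93 CPM in buds of ASK1 WT and 22.8 and 14.3 CPM in those of Col-0. Open flowers held 44.1 and 49.0 CPM in ask1, 17.9 and 19.1 CPM in ASK1 WT, and 27.0 and 14.9 CPM in Col-0. The ask1 libraries lay above all controls in both tissues, with a wide gap between both ask1 bud libraries. It rose by 2.72 ± 0.38 on the log2 scale against ASK1 WT in buds (edgeR, adjusted p 3.9e-04) and by 1.33 ± 0.36 in open flowers (edgeR, adjusted p 0.0188). The open flower call was lost in 5 of 9 alternatives, among them the fits without each of the 4 libraries compared, with adjusted p up to 0.137. The bud call held in 9 of 10 and was lost with only the compared libraries in the fit (adjusted p 0.0705).

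**Figure D3:**
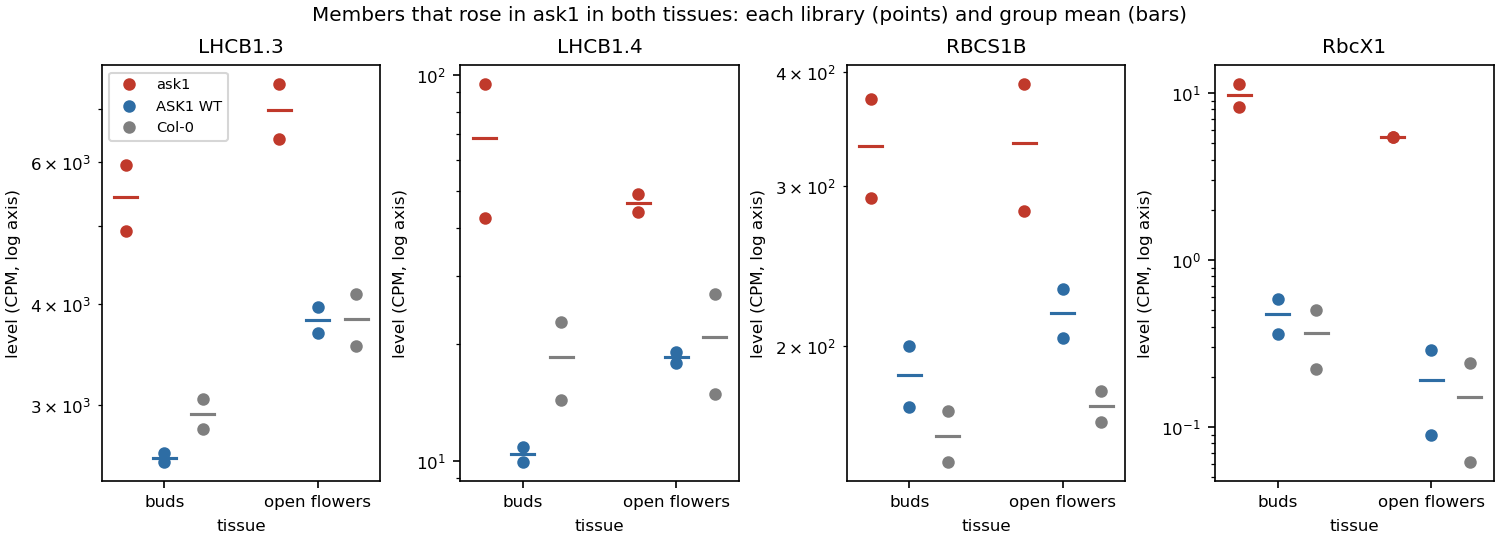
CPM on a log axis by tissue for the 4 genes that rose against both controls in both tissues; each point is a library and each bar the mean of 2. LHCB1.3 is at 4932 CPM or more in every ask1 library and at 4117 CPM or less in every control, and RbcX1 is at 5.46 CPM or more in ask1 and at 0.584 CPM or less in controls.

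The share of LHCB1.3 in its family was higher in ask1. Summed LHCB1 counts changed by 0.46 ± 0.17 on the log2 scale against ASK1 WT in buds (edgeR, adjusted p 0.0726). They rose by 0.56 ± 0.17 against ASK1 WT in open flowers (edgeR, adjusted p 0.0296). Without the first ask1 library the open flower change was 0.28. The open flower call was lost in 3 of the 4 fits that left out 1 library. LHCB1.3 made up 54.1% and 58.9% of LHCB1 counts in ask1 buds, and 46.3% and 53.3% in ask1 open flowers, against 35.8% to 40.2% in the 8 controls. LHCB1.1, its head-to-head neighbour, made up 9.69% to 10.8% in ask1 and 13.8% to 16.2% in controls. The Wilson 95% interval for LHCB1.3 in the first ask1 bud library was 53.8% to 54.3%, and such intervals cover counting error only. LHCB1.4 made up 0.466% and 0.934% in ask1 buds against 0.139% to 0.273% in control buds, and 0.272% and 0.407% in ask1 open flowers against 0.156% to 0.261% in control open flowers. The interval of the lower ask1 open flower value, 0.253% to 0.294%, overlapped that of the highest control, 0.238% to 0.286%.

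**Figure D4:**
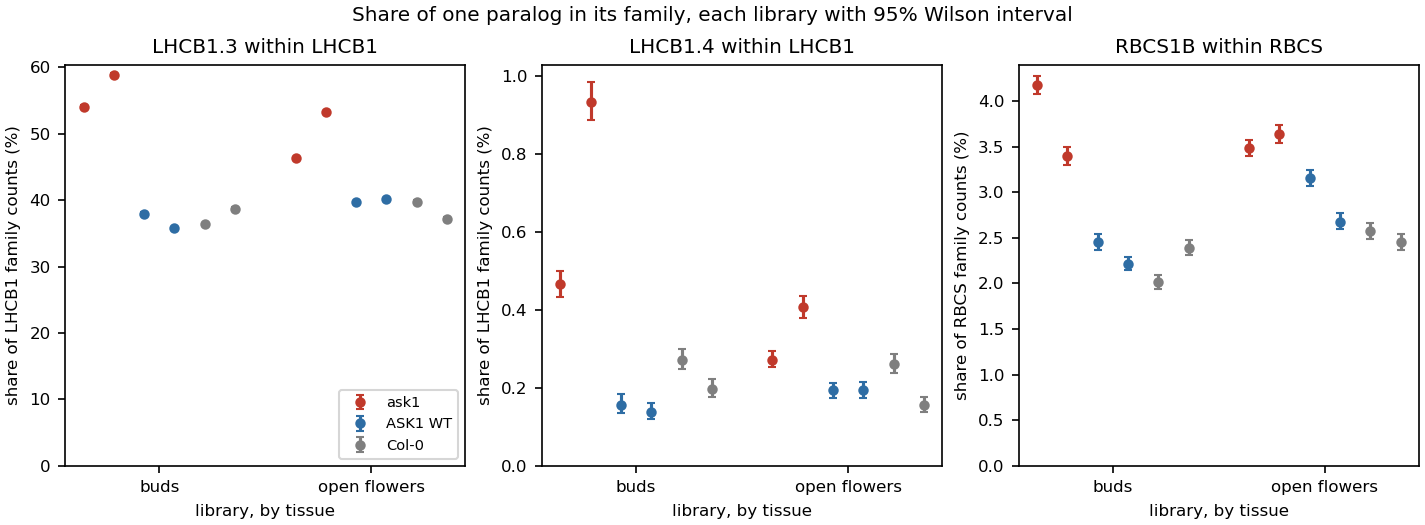
Share of LHCB1 counts held by LHCB1.3 and LHCB1.4 and of RBCS counts held by RBCS1B (percent, y axis) in each of the 12 libraries, by tissue, with 95% Wilson intervals. All 4 ask1 libraries lie above all 8 controls for LHCB1.3 (46.3% or more against 40.2% or less) and for RBCS1B (3.40% or more against 3.15% or less), while the interval of LHCB1.4 overlaps that of a control in 1 ask1 open flower library (0.272% against 0.261%).

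LHCB1.1 itself was at 987 and 980 CPM in ask1 buds and 996 to 1156 CPM in control buds. Its log2 fold change against ASK1 WT was -0.10 ± 0.18 in buds and -0.08 ± 0.18 in open flowers, and neither passed the test in the fit of all libraries. Without the first ask1 open flower library its open flower change was -0.43. Its open flower levels were 1721 CPM in the first ask1 library and 1180 CPM in the second, on both sides of the controls at 1430 to 1610 CPM. LHCB1.2 (-0.04 in buds, 0.34 in open flowers) and LHCB1.5 (-0.14 and 0.47) did not pass the test either. LHCB2.3, a further gene for the major light-harvesting protein, had the lowest value of the role group in buds (-0.38 ± 0.21), with 121 and 151 CPM in ask1 and 155 to 202 CPM in controls.

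Of the minor antenna genes, which code for the proteins CP29, CP26 and CP24 between the core and the outer antenna, LHCB4.1 (CP29) rose in buds against both controls, by 0.57 ± 0.16 and 0.50 ± 0.16 on the log2 scale (edgeR, adjusted p 0.0231 and 0.0466). It was at 1392 and 1466 CPM in ask1 buds and at 936 to 1082 CPM in control buds, so that the groups did not overlap. The bud call was lost when any 1 of the 4 libraries compared was left out, with adjusted p up to 0.131. In ask1 open flowers LHCB4.1 was at 1793 and 1348 CPM against 1076 to 1154 CPM, and it rose against ASK1 WT by 0.49, or 0.22 without the first ask1 library, where it no longer passed.

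LHCB4.2, the second CP29 gene, was at 1121 and 1028 CPM in ask1 open flowers, 617 and 656 CPM in ASK1 WT and 724 and 689 CPM in Col-0. Both ask1 libraries were close to each other and above all controls. It rose by 0.76 ± 0.14 against ASK1 WT (edgeR, adjusted p 0.00219) and by 0.61 against Col-0, and it kept its call against ASK1 WT in 8 of 9 alternatives, at 0.64 without the first ask1 library. With only the compared libraries in the fit the call was lost (adjusted p 0.0800). In buds the change was 0.35 against ASK1 WT and did not pass.

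LHCB5 (CP26) was at 2980 and 2091 CPM in ask1 open flowers and at 1551 to 1742 CPM in controls, and rose by 0.55 and 0.66 against ASK1 WT and Col-0. LHCB6 (CP24) was at 2329 and 1325 CPM against 1046 to 1169 CPM, and rose by 0.77 and 0.69. In both the first library was far above the second and the second still above all controls. Without the first library LHCB5 changed by 0.22 and LHCB6 by 0.25 against ASK1 WT, and LHCB5 no longer passed the test there, nor LHCB6 against Col-0 (0.17). Both calls were also lost without either ASK1 WT open flower library.

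Of 6 antenna genes of photosystem I, 3 rose in open flowers against ASK1 WT and 4 against Col-0, where 14.1% and 12.9% of all tested genes rose, and edgeR called none in buds. By unadjusted p under 0.05, 1 was higher in buds against ASK1 WT and 0 against Col-0, and DESeq2 called 2 and 0. With the first ask1 open flower library left out, edgeR called 3 in buds against ASK1 WT, where 19% of all tested genes rose: LHCA2 (0.42), LHCA3 (0.40) and LHCA4 (0.36). It then called 2 against Col-0, where 18.1% rose. LHCA3 was at 1560 and 1258 CPM in ask1 open flowers and 879 to 988 CPM in controls, and rose by 0.62 ± 0.15 against ASK1 WT (edgeR, adjusted p 0.00909). LHCA2 was at 1362 and 900 CPM against 684 to 765 CPM and rose by 0.67, and LHCA4 was at 2641 and 2244 CPM against 1616 to 1772 CPM and rose by 0.54. Both ask1 libraries lay above all controls for all 3 of these genes. Each call was lost when either ASK1 WT open flower library was left out, and held against ASK1 WT without the first ask1 library (0.41 for LHCA3, 0.29 for LHCA2 and 0.36 for LHCA4), while that of LHCA2 against Col-0 was lost (0.20).

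The weakly expressed LHCA6 rose against Col-0 alone (0.34), at 33.4 and 33.9 CPM in ask1 open flowers against 26.0 to 28.3 CPM in controls. That call was lost without the first ask1 library (0.29), with the length trend removed, with RLE factors, without the filter and in DESeq2. LHCA1, the antenna protein paired with LHCA4, changed by 0.01 in buds and 0.32 in open flowers against ASK1 WT. LHCA5 changed by -0.10 and 0.34, and it overlaps an opposite-strand gene, AT1G45545, that changed by -2.67 and -2.49 on the log2 scale and passed as lower in both tissues. Neither LHCA1 nor LHCA5 passed the test.

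Of 10 photosystem I subunit genes, 6 and 5 rose in open flowers against ASK1 WT and Col-0, where 14.1% and 12.9% of all tested genes rose, and 3 and 2 without the first ask1 library, where 12.2% and 10.6% did. In buds edgeR called none. By unadjusted p under 0.05, 1 was higher in buds against ASK1 WT and 0 against Col-0, and DESeq2 called 1 and 0. In the fit that leaves out the first ask1 open flower library 8 rose in buds against ASK1 WT, among them PSAE1 (0.40), PSAD2 (0.40) and PSAO (0.38), where 19% of all tested genes rose. Against Col-0 3 then rose, where 18.1% did. PSAO, a small subunit near the docking site of the mobile antenna, was at 1165 and 774 CPM in ask1 open flowers and 573 to 631 CPM in controls. It rose by 0.72 ± 0.18 against ASK1 WT (edgeR, adjusted p 0.0127). PSAD1, a stromal subunit of the ferredoxin docking site, was at 1044 and 770 CPM against 586 to 649 CPM and rose by 0.57. For both genes the second ask1 library, though lower than the first, lay above all controls. Without the first library the changes were 0.34 and 0.29 and kept their call, which was lost without either ASK1 WT library.

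PSAE1, a further stromal subunit, was at 849 and 500 CPM in ask1 open flowers against 406 to 455 CPM. PSAH2, which binds the mobile antenna, was at 491 and 353 CPM against 291 to 315 CPM, and PSAL, which shares that region, at 1474 and 1045 CPM against 814 to 903 CPM. They rose by 0.62, 0.51 and 0.56 against ASK1 WT. All 3 calls were lost without the first ask1 library, where the changes were 0.13, 0.20 and 0.24, and without either ASK1 WT library. PSAD2, the paralog of PSAD1, rose against ASK1 WT alone (0.48, and 0.29 without the first ask1 library, where the call held), and PSAF, PSAG, PSAK and PSAN changed by 0.26 to 0.61 without passing. Of the whole group 9 of 10 genes had both ask1 open flower libraries above all controls, as did 25.2% of all tested genes. Both ask1 bud libraries lay above for 6 of 10, and for 22.5% of all tested genes.

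Of 7 photosystem II subunit genes, 1 rose in buds against ASK1 WT, 1 in open flowers against ASK1 WT and 2 in open flowers against Col-0, where 8.84%, 14.1% and 12.9% of all tested genes rose. In buds against Col-0 edgeR called none, with 1 higher by unadjusted p under 0.05 and 1 called by DESeq2. PSBQ2, an extrinsic protein of the oxygen-evolving complex, rose in open flowers against both controls, at 760 and 646 CPM in ask1 against 459 to 503 CPM. Its change was 0.53 ± 0.14 against ASK1 WT (edgeR, adjusted p 0.0143), and 0.36 without the first ask1 library, where the call held, but it was lost without either ASK1 WT library. In ask1 buds PSBQ2 was at 579 and 613 CPM against 427 to 484 CPM and rose against ASK1 WT alone (0.43), a call lost without any 1 of the 4 libraries compared. Its paralog PSBQA was at 718 and 547 CPM in ask1 open flowers against 438 to 477 CPM in controls, and rose there against Col-0 alone (0.48). That call was lost without the first ask1 library (0.21), with the length trend removed, with RLE factors and without the filter. Summed PSBQ counts rose in open flowers by 0.48 ± 0.14 and 0.53 ± 0.14 against ASK1 WT and Col-0. Against ASK1 WT the sum changed by 0.26 without the first ask1 library. That family call was lost in 2 of the 4 fits that left out 1 library, and with the length trend removed. The genes of the other extrinsic proteins, PSBO1, PSBO2 and PSBP1, changed by 0.20 to 0.45 in open flowers and 0.22 to 0.33 in buds against ASK1 WT, with none past the test. All 3, with the first ask1 open flower library left out, passed as higher in buds against both controls (0.35, 0.27 and 0.38 against ASK1 WT), as did PSBQA, so that 5 of 7 rose there against each control, where 19% and 18.1% of all tested genes did. The open flower changes of PSBO1, PSBO2 and PSBP1 were then 0.11, -0.09 and 0.03. PSBS, the sensor protein of thermal dissipation, changed by -0.12 in buds and 0.27 in open flowers, and PSBR, which helps attach the extrinsic proteins, by -0.02 and 0.46.

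Neither plastocyanin gene passed the test between ask1 and a control in the fit of all libraries or in DESeq2. By unadjusted p under 0.05 PETE1 was lower in buds against Col-0 and no other value passed. PETE1 fell in buds against Col-0 without the first ask1 open flower library (-0.25), as it did with the length trend removed. PETE2 rose in buds against ASK1 WT (0.27) and Col-0 (0.20) without that library. PETE1 was at 81.8 and 80.4 CPM in ask1 buds against 89.7 to 104 CPM in controls, and at 128 and 107 CPM in ask1 open flowers against 96.2 to 121 CPM. Its log2 fold change was -0.15 ± 0.13 in buds and 0.02 ± 0.13 in open flowers against ASK1 WT. PETE1 lies 35986 bases from ASK1 on chromosome 1. PETE2, the more abundant gene, changed by 0.21 and 0.32, and its 2 ask1 open flower libraries, at 1282 and 746 CPM, lay on both sides of the controls at 786 to 837 CPM.

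Among the Rubisco genes the minor small subunit gene RBCS1B and the assembly chaperone gene RbcX1 rose in both tissues. RBCS1B (AT5G38430) was at 373 and 291 CPM in ask1 buds, 200 and 172 CPM in buds of ASK1 WT and 149 and 170 CPM in those of Col-0. Open flowers held 388 and 281 CPM in ask1, 231 and 204 CPM in ASK1 WT, and 179 and 165 CPM in Col-0. All ask1 libraries were above all controls. It rose by 0.84 ± 0.19 in buds (edgeR, adjusted p 0.00737) and 0.62 ± 0.19 in open flowers (edgeR, adjusted p 0.0292) against ASK1 WT, and by 1.06 and 0.96 against Col-0. The bud call was lost without the first ask1 library and without the second ASK1 WT library, with adjusted p up to 0.0775. The open flower call was lost without the first ask1 library, where the change was 0.32, and without either ASK1 WT library.

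Of the other small subunit genes RBCS1A rose in 1 comparison and the rest did not pass in the fit of all libraries. RBCS2B, 97.3% identical to RBCS1B in its coding sequence, was at 642 and 450 CPM in ask1 buds and 459 to 716 CPM in controls, a change of -0.32 ± 0.26 against ASK1 WT. RBCS3B changed by -0.13 in buds and 0.12 in open flowers. Its open flower levels were 3273 and 2022 CPM in ask1, on both sides of the controls at 2131 to 2457 CPM. RBCS1A was at 5235 and 5116 CPM in ask1 buds against 3780 to 4244 CPM, and at 6519 and 4901 CPM in ask1 open flowers against 3895 to 4430 CPM. The groups of RBCS1A did not overlap in either tissue, but in the fit of all libraries it passed only in open flowers against Col-0 (0.51), and that call was lost without the first ask1 library (0.23). Without that library it rose in buds against ASK1 WT (0.38) and Col-0 (0.47), as it did with the length trend removed. DESeq2 called it in buds against Col-0 and in open flowers against both controls. RBCS1B held 4.18% and 3.40% of RBCS counts in ask1 buds and 3.48% and 3.63% in ask1 open flowers, against 2.02% to 3.15% in controls. Summed RBCS counts changed by 0.14 ± 0.17 in buds and 0.34 ± 0.17 in open flowers against ASK1 WT, and neither passed. RCA, the Rubisco activase gene, changed by -0.21 in buds and -0.10 in open flowers. Its open flower levels were 2295 and 1879 CPM in ask1, on both sides of the controls at 2040 to 2271 CPM. RCA overlaps AT2G39725 on the opposite strand, which rose by 1.05 in open flowers.

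RbcX1 (AT4G04330), a chaperone that helps assemble the large subunits of Rubisco, changed most of all 45 genes. It was at 8.29 and 11.3 CPM in ask1 buds, 0.584 and 0.362 CPM in buds of ASK1 WT and 0.224 and 0.504 CPM in those of Col-0. Open flowers held 5.46 and 5.48 CPM in ask1, 0.0900 and 0.292 CPM in ASK1 WT, and 0.242 and 0.0619 CPM in Col-0. No ask1 library came near a control library, and the controls lay close to the limit set by depth. Over both libraries of a group the bud counts were 319 for ask1, 16 for ASK1 WT and 13 for Col-0, and the open flower counts 178, 7 and 5. The ratio of ask1 to ASK1 WT, scaled by library size, was 20.9 in buds (95% interval 12.7 to 37.1, counting error only) and 30.8 in open flowers (14.6 to 77.6). To Col-0 the ratios were 26.5 (15.3 to 50.2) and 35.7 (15.03 to 111).

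The fitted log2 fold changes of RbcX1 against ASK1 WT were 4.38 ± 0.42 in buds (edgeR, adjusted p 2.87e-05) and 4.88 ± 0.49 in open flowers (edgeR, adjusted p 5.2e-05). They kept their call in all 10 and all 9 alternatives, between 4.05 and 4.73 and between 4.12 and 5.74. The control libraries held 1 to 9 counts of RbcX1 each, so it passed the filter on low counts only through the ask1 groups. Its p-values are therefore those of a gene kept because it was high in ask1. RbcX1 overlaps AT4G04320 on the opposite strand, which was at 36.7 CPM in controls and changed by -0.28 in buds and -0.01 in open flowers, without passing the test. The counting strand is not given in the sources used here, and reads of overlapping genes on opposite strands cannot be told apart without it. This applies to 16 of the 45 genes, among them LHCB1.3, LHCB4.2, LHCB6, LHCA4, PSAE1 and PSAH2 of those that rose against both controls. The partner of LHCB1.3, NRPA2, was at 60.4 CPM in controls and did not pass the test, while the partners of PSAH2 (ROPGEF11, -2.34 and -1.63) and PSAN (AT5G64030, -0.55 and -0.75) fell in both tissues.

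The controls differed little from each other. Between ASK1 WT and Col-0 none of 45 genes passed in buds, where 0.174% of all tested genes were higher in ASK1 WT and 0.146% lower, and none in open flowers, where 0.0320% were higher and 0.00914% lower. Without adjustment, at p under 0.05, edgeR gave 1 falling gene in buds and 0 in open flowers, and DESeq2 called 0 in each. The set changed by a median of -0.04 in buds and -0.01 in open flowers. All 6 Rubisco genes had positive values in both tissues (medians 0.23 and 0.16), and RBCS1B lay higher in both ASK1 WT than in both Col-0 libraries of each tissue.

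Open flowers and buds were then compared within each genotype. In Col-0 no gene of the set rose from buds to open flowers, where 18.8% of all tested genes did, and LHCB4.3, a stress-linked relative of the CP29 genes, fell by 0.71, where 17.1% fell. In Col-0 5 genes were higher in open flowers by unadjusted p under 0.05, and DESeq2 called 5. In ASK1 WT LHCB1.1 (0.54), LHCB1.3 (0.57) and PETE1 (0.37) rose, where 18.4% did, and LHCB4.3 fell by 0.72, where 16.9% fell. In ask1 14 genes rose, where 22.2% of all tested genes did, and none fell, where 15.5% did (2 by unadjusted p under 0.05 and 1 by DESeq2). Among the 14 were LHCB1.5 (0.92), LHCB4.2 (0.77), LHCB2.1 (0.72), LHCB1.2 (0.71), PSBR (0.64), LHCB6 (0.62) and LHCA3 (0.61).

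Those tissue counts also moved with single libraries. Without the first ask1 open flower library 17 genes rose in Col-0 and 21 in ASK1 WT, where 28.5% and 28.1% of all tested genes rose. In ask1 8 then rose, where 20.6% did, and 4 fell, where 20.1% did. With only the compared libraries in the fit 10 rose in Col-0 and 23 in ASK1 WT, where 25.4% and 27.3% did, and none in ask1 (16 by DESeq2 on all libraries), where 9.81% did. In ask1 the number that rose ranged from 5 without the first bud library to 39 without the second open flower library. LHCB1.3 did not pass in Col-0, although both open flower libraries there, at 4117 and 3549 CPM, lay above both bud libraries.

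The difference of the ask1 effect between the tissues, taken against ASK1 WT, passed for none of 45 genes, where it was higher in open flowers for 4.45% of all tested genes and lower for 2.36%. By unadjusted p under 0.05 2 genes were higher and 1 lower, and DESeq2 called 0 in both directions. Its median over the set was 0.27. Without the second ask1 open flower library 31 genes passed as higher in open flowers, where 21.1% of all tested genes did. The ask1 effect was therefore not shown to differ between the tissues.

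Genes of connected pathways outside the set were read from lists that were chosen with earlier results of these data known. Of 24 chlorophyll synthesis genes 13 rose in buds against ASK1 WT and 12 against both controls, and none fell (0 also by unadjusted p under 0.05), beside the 8.84% and 5.62% of all tested genes that rose. The largest rises were in the light-dependent protochlorophyllide oxidoreductase genes PORB and PORA. PORB was at 876 and 887 CPM in ask1 buds and 71.7 to 142 CPM in controls, and at 660 and 846 CPM in ask1 open flowers and 102 to 175 CPM in controls. All ask1 libraries were far above all controls, and PORB rose by 3.57 ± 0.19 in buds (edgeR, adjusted p 2.48e-06) and 2.87 ± 0.18 in open flowers (edgeR, adjusted p 3.4e-06) against ASK1 WT.

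PORA, the form known from dark-grown seedlings, was at 7.25 and 11.7 CPM in ask1 buds, 0.325 and 0.259 CPM in buds of ASK1 WT and 1.51 and 1.01 CPM in those of Col-0. It rose by 4.99 ± 0.49 against ASK1 WT and 2.89 ± 0.39 against Col-0 in buds, and by 2.47 and 1.27 in open flowers. HEME1 (uroporphyrinogen decarboxylase) and CHLI2 (a magnesium chelatase subunit) rose in buds by 0.81 and 0.74 against ASK1 WT and by 0.77 and 0.72 against Col-0. In open flowers 4 genes of the list rose and HEMA2, a glutamyl-tRNA reductase gene, fell by 1.25 against ASK1 WT, where 14.1% of all tested genes rose and 15.9% fell. Without the first ask1 open flower library 19 rose in buds and 3 in open flowers, where 19% and 12.2% of all tested genes did, and with the length trend removed 16 and 7. The open flower calls of PORB (2.99), PORA (2.52) and HEMA2 (-1.28) held without it.

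**Figure D5:**
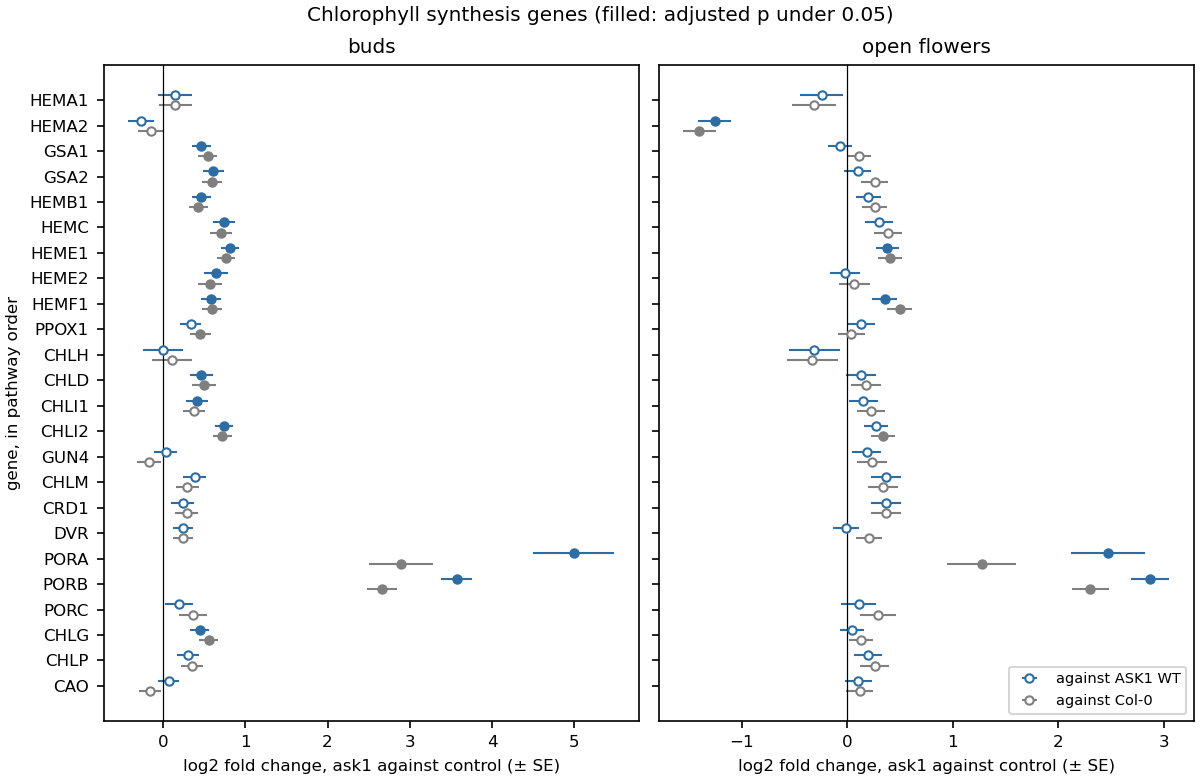
Log2 fold change of ask1 against ASK1 WT (blue) and Col-0 (grey) with its SE for 24 chlorophyll synthesis genes in pathway order, in buds and open flowers; filled points passed the test. PORA and PORB stand far to the right in both tissues, 12 genes are filled against both controls in buds, and HEMA2 in open flowers is the 1 gene filled on the left.

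Of 26 other thylakoid genes 4 rose and 2 fell against ASK1 WT in buds, where 8.84% of all tested genes rose and 17.0% fell. In open flowers 9 of them rose and 1 fell, where 14.1% rose and 15.9% fell. PORB, VDE1, CAT2 and SIG4 overlap genes on the opposite strand, so that their values are uncertain in the same way as above. VDE1, the violaxanthin de-epoxidase of photoprotection, rose by 1.49 and 1.15 in buds and by 1.27 and 0.99 in open flowers against ASK1 WT and Col-0. FNR2, a ferredoxin-NADP reductase, rose by 0.69 and 0.74 in buds, and its open flower changes were 0.67 and 0.71. STN7, the kinase of the mobile antenna, fell by 0.57 and 0.44 in buds, and its open flower changes were -0.53 and -0.56. PSAE2, the paralog of PSAE1, and PSBP2, the paralog of PSBP1, rose in open flowers against both controls. The change of PSAE2 against Col-0 was 0.97, and that of PSBP2 against ASK1 WT was 1.08. Without the first ask1 open flower library 14 genes of the list rose in buds and 6 in open flowers, where 19% and 12.2% of all tested genes did, and 3 fell in each tissue. The open flower calls against ASK1 WT of VDE1 (1.42), FNR2 (0.49), STN7 (-0.61) and PSBP2 (1.03) held, as did that of PSAE2 against Col-0 (0.57).

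Of 18 Calvin cycle genes 2 rose in buds against ASK1 WT, a share near the 8.84% of all tested genes. In that comparison 1 fell, where 17.0% of all tested genes did. In open flowers 5 rose, where 14.1% of all tested genes did, and none fell (1 by unadjusted p under 0.05), where 15.9% did. CP12-2, CP12-3 and CP12-1, small proteins that hold phosphoribulokinase and glyceraldehyde phosphate dehydrogenase inactive in the dark, rose in open flowers by 1.03, 1.23 and 0.73 against ASK1 WT, as did PGK1 (phosphoglycerate kinase, 0.54). TKL1 (transketolase) rose in buds by 0.47. Without the first ask1 open flower library 10 genes rose in buds and 7 in open flowers, where 19% and 12.2% of all tested genes did, and FBA1 and RbcX2 fell in open flowers. The open flower calls of CP12-2 (0.63), CP12-3 (0.73), CP12-1 (0.45) and PGK1 (0.30) held without it. Of 11 photorespiration genes 3 fell against ASK1 WT in each tissue, where 17.0% and 15.9% of all tested genes fell, 1 rose in open flowers, and none rose in buds (1 by unadjusted p under 0.05). Leaving out that library, 5 fell in buds and 4 in open flowers, where 21.7% and 20.7% of all tested genes fell, and 1 rose in each. CAT2, the leaf peroxisomal catalase, was at 136 and 148 CPM in ask1 buds against 274 to 402 CPM, and fell by 1.46 ± 0.15 and 0.95 ± 0.14 against ASK1 WT and Col-0 (edgeR, adjusted p 3.76e-05 and 8.1e-04). The open flower changes were -1.17 and -1.12. HPR1 (hydroxypyruvate reductase) fell by 0.96 in buds, and GLDP1 and GLDP2 (glycine decarboxylase) by 0.79 and 0.94 in open flowers, while GOX2 (glycolate oxidase) rose by 0.53. Those 3 open flower calls held without the first ask1 library (-0.62, -0.67 and 0.31).

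Among 20 regulators of these genes 4 rose and 5 fell against ASK1 WT in buds, where 8.84% of all tested genes rose and 17.0% fell. In open flowers 3 rose and 2 fell, shares near the 14.1% and 15.9% of all tested genes. GLK1, a transcription factor that promotes chloroplast genes, was at 38.8 and 30.0 CPM in ask1 buds against 25.4 to 27.8 CPM in controls, and its changes of 0.31 and 0.44 did not pass. GLK2 rose against ASK1 WT by 0.53 in buds and 0.66 in open flowers, while its change of 0.28 against Col-0 did not pass in either tissue. SIG5, a nuclear-encoded sigma factor of plastid RNA polymerase, fell by 1.59 and 1.31 in buds and by 1.02 and 0.89 in open flowers, and the light-signalling factor HY5 fell by 1.13 and 1.08 in buds. The sigma factors SIG2 and SIG6 rose in buds by 0.52 and 0.56 against ASK1 WT, and SIG4 and the phytochrome-interacting factor PIF4 rose in open flowers by 1.23 and 0.85. Of 5 chlorophyll breakdown genes SGR1 (magnesium dechelatase) and PPH (pheophytinase) fell in open flowers, by 1.27 and 0.54 against ASK1 WT and by 0.85 and 0.51 against Col-0. Regulators that rose without the first ask1 open flower library numbered 9 in buds and 6 in open flowers, where 19% and 12.2% of all tested genes rose, and those that fell 6 and 4. GLK1 then rose against ASK1 WT by 0.37 in buds and 0.45 in open flowers. The open flower calls against ASK1 WT of GLK2 (0.68), SIG4 (1.05), PIF4 (0.63), SGR1 (-1.57) and PPH (-0.61) held, as did that of SIG5 against Col-0 (-0.88).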

How the data were processed

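RNA-seq read counts of 12 libraries in 6 groups of 2 were used. The deposited values are raw read counts per gene, 1 file per library, and Trimmomatic, TopHat2 and HTSeq with the TAIR10 build are named in the submitters' processing notes. Versions, settings and the counting strand are not given in the sources used here. Reads were 150-nt paired-end, per the labels. The 5 summary lines, 7.60% to 9.70% of each library, stayed out of library sizes and tests.

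Genes passing edgeR's expression filter (minimum count 10, minimum total 15) were scaled by TMM and fitted with 1 mean per group over all 12 libraries, with 6 residual degrees of freedom (edgeR 4.0.16, limma 3.58.1, R 4.3.3, robust quasi-likelihood F-tests, Benjamini-Hochberg over 21890 genes, threshold 0.05). An SE is the log2 fold change divided by the square root of F. Wilson and exact intervals of 95% cover counting error only. Exon lengths (21826 tested genes), positions and promoters came from the TAIR10.1 genome and its annotation, matched by locus tag. An exon length was found for 32827 of 33602 IDs. Python 3.11.15, Biopython 1.88 and matplotlib 3.10.9 were used. The fit was tested on simulated data.

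The genes of the set, the lists and the tests were chosen with earlier results of these data known. Genes of the set were named freely and given library by library where both control comparisons called them alike or their change was extreme in their role. Of the other lists GLK1, GLK2, ASK1 and up to 4 genes per list and tissue that passed against both controls were named. Alternatives were RLE factors, DESeq2 1.42.0, no filter, fits of the compared libraries alone, removal of the length trend (loess, span 0.5, log2 CPM with prior count 2), summed paralogs and leaving out libraries. Refits of the other lists, and the values of single genes with no filter or in fits of the compared libraries alone, were added after seeing the data.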

Additional observations from a re-analysis of the deposited data

Results flagged for a closer look

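No gene of the set met a criterion for a closer look: groups of 2 libraries are too small to test a library against its group, and the edgeR interaction test of the ask1 effect between the tissues passed for none of the 45 (2 higher and 1 lower by unadjusted p under 0.05, 0 by DESeq2). Of the other lists 4 genes had an ask1 effect against ASK1 WT that differed between open flowers and buds in the fit of all libraries. That fit holds the first ask1 open flower library, in which short genes read high. These differences are not given without it. The difference in log2 fold change, open flowers minus buds, was 1.23 ± 0.27 for CP12-2 (edgeR, adjusted p 0.0242), which was at 72.2 and 69.5 CPM in ask1 buds among controls at 71.8 to 91.5 CPM, and at 139 and 89.3 CPM in ask1 open flowers above controls at 53.4 to 58.6 CPM. It was -0.98 ± 0.22 for HEMA2 (edgeR, adjusted p 0.0257), at 17.4 and 21.4 CPM in ask1 buds, and at 20.9 and 21.7 CPM in ask1 open flowers, where controls were at 48.2 to 57.6 CPM. PIF5, a phytochrome-interacting factor, had 0.70 ± 0.17 (edgeR, adjusted p 0.0326), at 23.5 and 22.5 CPM in ask1 buds, and at 33.3 and 35.0 CPM in ask1 open flowers, with controls at 26.8 to 32.9 CPM and 28.9 to 32.2 CPM. For PORA, which rose in both tissues, the difference was -2.52 ± 0.66 (edgeR, adjusted p 0.0458), with ASK1 WT levels of 0.325 and 0.259 CPM in buds, and of 1.75 and 3.56 CPM in open flowers. Beside these, 4.45% of all tested genes had a higher and 2.36% a lower ask1 effect in open flowers.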

How the results depend on the processing

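No paired analysis was possible because replicate numbers follow accession order and pair nothing. With only the compared libraries in the fit, genes that rose numbered 25 (ASK1 WT) and 15 (Col-0) in buds and 2 and 1 in open flowers, 1 in each tissue for ASK1 WT against Col-0, and 23 (ASK1 WT), 10 (Col-0) and 0 (ask1) from buds to open flowers; genes that fell numbered 1 for ask1 and for ASK1 WT against Col-0 in buds, and 6 (ASK1 WT) and 2 (Col-0) from buds to open flowers. With the length trend removed 17 and 10 rose in buds and 1 fell against Col-0, and from buds to open flowers 9 (ASK1 WT) and 6 (Col-0) rose and 3 fell in ask1. DESeq2 gave 10 in buds against ASK1 WT, and from buds to open flowers 5 in each control with 1 falling in ask1. RLE factors gave 1 rising in Col-0 and 2 falling in ask1 between tissues, and no filter 4 and 2, with 9 rising against Col-0 in open flowers. With paralogs summed each family counts as 1 entry, so that the total is smaller than the set. In that setting 2 and 1 entries rose in buds, and 0 (ASK1 WT) and 9 (ask1) between tissues. The cause of these shifts was not tested.

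Leaving out 1 library at a time, genes that rose numbered 3 to 26 (ASK1 WT) and 3 to 19 (Col-0) in buds, 3 to 41 and 2 to 42 in open flowers, 0 to 17 (Col-0), 0 to 21 (ASK1 WT) and 5 to 39 (ask1) between tissues, and 0 to 31 for the tissue difference. Genes that fell numbered 0 to 2 (Col-0, buds), 0 to 3 and 0 to 2 in open flowers, 0 to 2 (Col-0), 0 to 2 (ASK1 WT) and 0 to 4 (ask1) between tissues, and 0 to 1 for the tissue difference. A group left with 1 library is assumed to vary like the others.

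Family sums against ASK1 WT ranged in buds from 0.38 to 0.53 (LHCB1), -0.17 to 0.0067 (LHCB2), 0.46 to 0.55 (LHCB4.1 with LHCB4.2), 0.10 to 0.19 (RBCS), 0.29 to 0.36 (PSAD), 0.27 to 0.33 (PSBO), 0.34 to 0.41 (PSBQ) and 0.14 to 0.24 (PETE). In open flowers they ranged from 0.28 to 0.76, -0.022 to 0.62, 0.39 to 0.73, -0.0013 to 0.58, 0.29 to 0.72, 0.078 to 0.64, 0.26 to 0.62 and -0.17 to 0.60. With the length trend removed LHCB1 (0.44), PSAD (0.29) and PSBQ (0.33) passed in buds and PSBQ (0.24) no longer in open flowers.

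Signs turned for genes that had not passed. In buds this held for LHCA6 (-0.028 to 0.060, and -0.015 with the length trend removed) and PSAN (-0.15 to 0.24). In open flowers it held for LHCB1.1 (-0.43 to 0.17), LHCB2.3 (-0.079 to 0.57), LHCA5 (-0.13 to 0.67), RBCS2B (-0.019 to 0.87), RCA (-0.31 to 0.031), PSAN (-0.18 to 0.56, and -0.046 with the length trend removed), PSBO2 (-0.085 to 0.40), PSBS (-0.066 to 0.51), PETE2 (-0.17 to 0.66) and PETE1 (-0.17 to 0.15, with -0.012 under RLE, -0.013 under DESeq2, -0.062 with no filter and -0.24 with the length trend removed). Calls of single genes against ASK1 WT held in every alternative run for 2 of 6 in buds (LHCB1.3 and RbcX1) and for 1 of 17 refitted singly in open flowers (RbcX1). LHCB1.3 and LHCB4.2 in open flowers and LHCB1.4 in buds were lost in the fit of the compared libraries alone. Depth limits the control levels of RbcX1.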
